A study of Mus musculus with 12 samples.

Results

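Treatment with a CD40 agonist in mice that carried a tumor was examined through 3 Tumor-CD40 libraries and 3 Tumor-NoCD40 libraries, 6 of the study's 12. All are RNA-seq libraries of cDC1, the conventional dendritic cells of type 1, taken from the inguinal lymph nodes. Both groups came from mice with a subcutaneous KPC tumor, KPC being the common name of lines derived from genetically engineered mouse pancreatic cancer, and only the first group received the agonist. The other 6 libraries, 3 without tumor or agonist (NoTumor-NoCD40) and 3 with the agonist alone (NoTumor-CD40), served as a reference. Libraries were taken into the comparison by the group name in their titles and paired by the prefix of the title (091218, 091318 or 091418). Each prefix holds 1 library of each tumor group, and the pairs are called 1, 2 and 3 in that order. The labels do not name the agonist, its dose or timing, the strain, age or sex of the mice, the sort gates, the side of the tumor, or what the prefix stands for. They also do not say whether libraries came from separate mice or from pools, so the p-values here rest on the variation among libraries, which may be technical.

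CD40 is a receptor of the tumor necrosis factor receptor family on dendritic cells, B cells and macrophages, and its ligand on helper T cells licenses dendritic cells to prime CD8 T cells. cDC1 depend on the transcription factors Batf3 and Irf8, carry Xcr1 and Clec9a, and cross-present material from dead cells. On maturation they raise the chemokine receptor Ccr7 and the actin bundler Fscn1. Type I interferons signal through a surface receptor to transcription factors that bind interferon-stimulated response elements (ISRE) near the start of their target genes.

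Expression is given as CPM, the usual library-size scaling of a gene's counts, with TMM factors, for libraries 1, 2 and 3 in that order. The 6 libraries held 22999824 to 27070208 expected counts and 20520 to 21245 genes with a count. The defining cDC1 markers were present in all of them. Xcr1 stood at 257, 686 and 73.1 CPM in the Tumor-NoCD40 libraries and at 249, 303 and 199 CPM in the Tumor-CD40 libraries, Clec9a at 105, 357 and 33.2 against 116, 167 and 113, and Irf8 at 1296, 2640 and 783 against 1374, 1572 and 1294. Tumor-NoCD40 library 2 stood apart among the 6. The sum of 25 cDC1 genes was 8013, 18110 and 4278 CPM in the untreated libraries against 7972, 9848 and 7131 with the agonist. The sum of 34 genes of dendritic cell maturation and migration ran the opposite way, with 38990, 18850 and 43570 CPM untreated and 30200, 25940 and 23940 CPM treated. In the NoTumor-NoCD40 libraries the cDC1 sum was 12380, 16460 and 15640 CPM and the maturation sum 31790, 22340 and 15520 CPM. Tumor-NoCD40 library 2 lay in or near these ranges. Tumor-NoCD40 libraries 1 and 3 lay below them for cDC1 genes and above them for maturation genes. Library 2 was thus the untreated tumor library with the most cDC1 marker RNA and the least maturation RNA. The values that most depend on it are given below also without it, which leaves libraries 1 and 3 as the untreated group.

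In the main fit few genes passed the threshold in mice with a tumor, and most of those were higher with the agonist. Of 18095 genes tested, 194 (1.07%) were higher and 35 (0.193%) lower in Tumor-CD40 libraries by edgeR's quasi-likelihood test with the pair as a block, at a Benjamini-Hochberg adjusted p under 0.05. The median log2 fold change of all genes was 0. Among the 194 higher genes, 29 belonged to 2 interferon lists, 35 were immunoglobulin genes, 17 were in B cell, plasma cell or germinal centre lists, and 113 were in none of these. The direction was the same in all 3 pairs for 191 of the higher and 34 of the lower genes, against 14.6% and 14.3% of all genes tested. The calls came from these same pairs, so this agreement is in part fixed by the selection. Tumor-CD40 and Tumor-NoCD40 libraries did not overlap for 180 of the higher genes and 25 of the lower, where 6.5% and 5.41% of all genes tested stood apart in these directions.

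The number of calls depended on the fit and on single libraries. Without the block 116 genes (0.641%) were higher and 8 (0.0442%) lower, of which 109 and 7 were also called with it. The total of 229 became 56 without pair 1, 394 without pair 2 (211 higher and 183 lower) and 126 without pair 3. Leaving out 1 library gave 66 calls without Tumor-NoCD40 library 1, 84 without Tumor-NoCD40 library 3 and 128 without Tumor-CD40 library 1, while without Tumor-NoCD40 library 2 there were 325, of which 137 were lower. Of the 229 calls 49 (47 higher and 2 lower) remained whichever of the 6 libraries was left out.

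**Figure D1:**
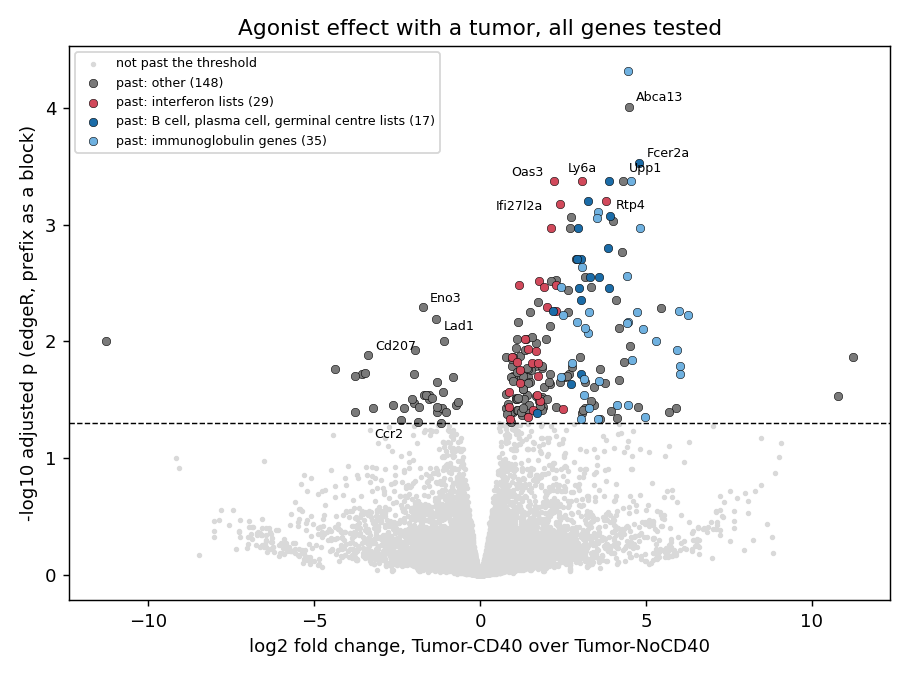
Each point is 1 of the 18095 genes tested, placed by its log2 fold change (Tumor-CD40 over Tumor-NoCD40, horizontal) and by −log10 of its edgeR adjusted p (vertical), with the 0.05 threshold as a dashed line. The 194 higher genes on the right outnumber the 35 lower ones, and the interferon (red), B cell (dark blue) and immunoglobulin (light blue) genes past the threshold all lie on the right.

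Interferon-stimulated genes were higher with the agonist. Of 55 tested genes of the type I interferon list, 23 (41.8%) rose and 0 fell, against 1.07% and 0.193% of all genes, and 53 had a log2 fold change above 0, with a median of 1.03. Without the block 16 rose. Ly6a (ENSMUSG00000075602, chromosome 15, 74994877 to 74998031), the surface protein Sca-1, was measured at 24.95, 23.3 and 21.7 CPM in Tumor-NoCD40 and at 199.9, 175 and 212 CPM in Tumor-CD40 libraries. The 2 groups were far apart and tight, and the log2 fold change was 3.08 ± 0.27 (SE; edgeR adjusted p = 0.000419). Oas3 (ENSMUSG00000032661, chromosome 5, 120753098 to 120777661), an oligoadenylate synthetase that senses double-stranded RNA, went from 9.83, 12.2 and 16.1 to 65.8, 59.2 and 54.3 CPM, a log2 fold change of 2.23 ± 0.21 (edgeR adjusted p = 0.000422).

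Further members of the list rose from low levels. Rtp4, a chaperone-like interferon target, stood at 1.57, 0.565 and 1.05 CPM untreated and 17.6, 9.12 and 17.2 CPM treated, a log2 fold change of 3.80 ± 0.38. Ifi27l2a rose from 17.6, 19.1 and 30.2 to 127, 109 and 119 CPM, by 2.42 ± 0.24 on the log2 scale. The ubiquitin-like modifier Isg15 rose from 23.7, 25.5 and 20.4 to 86.5, 75.1 and 76.2 CPM, by 1.77 ± 0.23. In all of these every treated library lay above every untreated one, and library 2 did not differ from the others in its direction. edgeR adjusted p was 0.000631 for Rtp4, 0.000672 for Ifi27l2a, 0.00304 for Isg15 and 0.00106 for Oasl2 (log2 fold change 2.13 ± 0.23), an oligoadenylate synthetase-like protein. Reads of Oas, Oasl and Ifit genes can be shared between close copies such as Ifit3 and Ifit3b, so the division within these families is less certain than the rise of the family.

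Other members called were the RNA sensor gene Ddx58 (RIG-I), the nucleic acid sensor gene Zbp1, the membrane antiviral gene Ifitm3, Rsad2, Xaf1, Isg20, Ifi44 and Irf7. Without Tumor-NoCD40 library 1 none of these 8 stayed past the threshold (edgeR), and without Tumor-NoCD40 library 3 only Xaf1 did. Ddx58, Ifi44 and Irf7 were also lost without the block. Irf7, the factor that amplifies interferon production, was at 68.2, 164 and 31.2 CPM untreated and 294, 324 and 168 CPM treated (log2 fold change 1.74 ± 0.30; edgeR adjusted p = 0.0151, and 0.165 without the block). Tumor-NoCD40 library 2 was the highest of the untreated libraries for Irf7 and came close to the lowest treated one, so the groups were only just apart. The call was lost without library 1 of either group or without Tumor-NoCD40 library 3 (0.0678 to 0.115). The response was not uniform: Mx1 stood at 84.1, 53.6 and 83.1 CPM untreated and 72.3, 68.4 and 51.5 CPM treated, and the RNA sensor gene Ifih1 (MDA5) at 48.9, 47.1 and 54.7 against 63.0, 55.5 and 47.8. Their log2 fold changes were −0.18 ± 0.18 and 0.15 ± 0.20 (edgeR adjusted p = 0.771 and 0.836). These 2 genes, Irf7 and Epsti1 were picked for mention after their values were seen. Epsti1, the most abundant member, was at 4432, 1285 and 5204 CPM untreated and 2506, 2342 and 1932 CPM treated (−0.46 ± 0.31; edgeR adjusted p = 0.633), and the list's summed level overlapped between groups, at 8177, 6464 and 8357 against 9296, 9128 and 7971 CPM. Single libraries moved the count of 23: it was 10 without Tumor-NoCD40 library 1, 12 without Tumor-NoCD40 library 3, 13 without Tumor-CD40 library 1 and 30 without Tumor-NoCD40 library 2, with medians from 0.82 to 1.27.

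**Figure D2:**
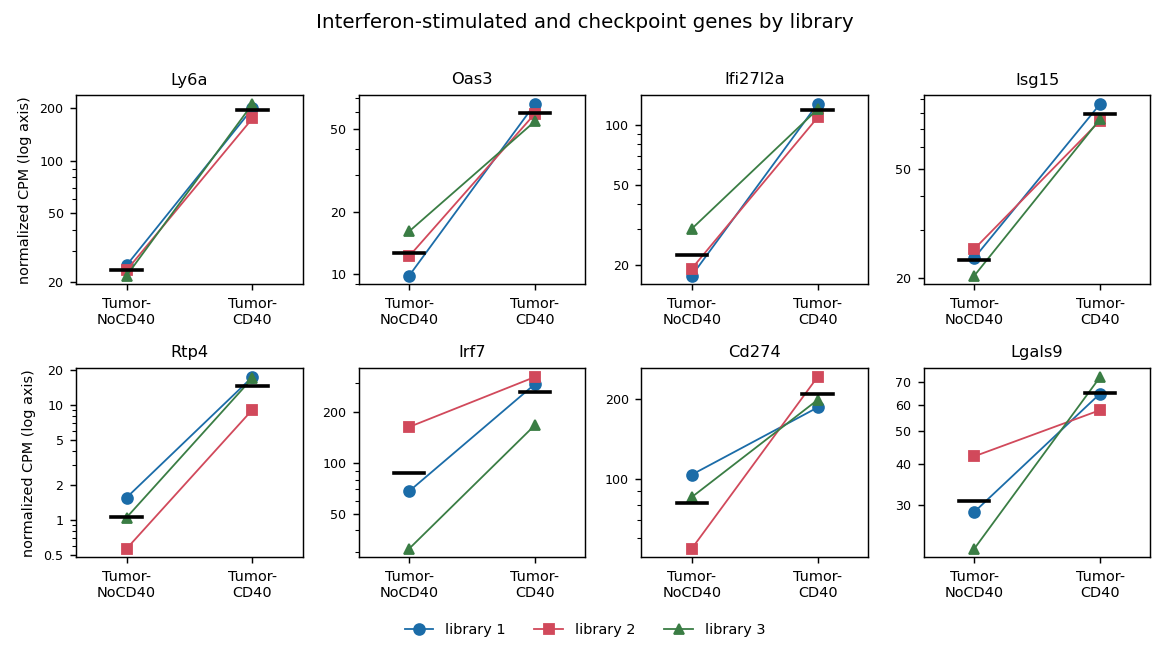
Normalized CPM on log axes for 8 genes in the 3 Tumor-NoCD40 and 3 Tumor-CD40 libraries, with a line joining the libraries of a pair and a black bar at each group's mean. All lines rise, Ly6a, Oas3 and Isg15 with little spread within a group, and Irf7 and Lgals9 with Tumor-NoCD40 library 2 (red squares) above the other untreated libraries.

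The promoters of several of these genes hold letters of the ISRE. A core of the ISRE, GAAA repeated after a gap of any 2 bases, was searched on both strands in the 250 bases before the start of each gene in RefSeq's promoter table for GRCm38.p6 (mm10). A match was held by 936 of 27025 genes with an entry there (3.46%) and by 3.44% of the genes tested here. Among the 194 higher genes, 113 had an entry and 26 of these (23%) held a match, against 1 of 26 lower genes with an entry (3.85%). Of the interferon list genes with an entry, 12 of 22 that rose (54.5%) and 16 of 34 that were tested and did not pass (47.1%) held it, shares that lie close to each other. Outside the interferon and B cell lists and the immunoglobulin genes, 13 of 79 higher genes with an entry (16.5%) held a match. Among these 13 were Ifi203, Ifi206, Ifi208, Ifi211, Ifi213 and Mndal, of a single family described below. Several of their windows are copies or near copies of each other, so these matches do not count as separate ones. A match is a description of the letters and not evidence of binding. Windows of 5 genes that rose are shown with the match in capitals and up to 25 bases on either side, 5′ to 3′ on the strand of the gene:
Isg15 (chr4:156200850-156200921, minus strand): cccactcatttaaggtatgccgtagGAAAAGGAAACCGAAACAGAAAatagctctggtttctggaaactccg
Oas3 (chr5:120777700-120777759, minus strand): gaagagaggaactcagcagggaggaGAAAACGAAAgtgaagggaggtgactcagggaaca
Ifi206 (chr1:173491324-173491383, minus strand): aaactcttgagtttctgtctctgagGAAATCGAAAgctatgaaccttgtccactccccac
Ifi213 (chr1:173599311-173599370, minus strand): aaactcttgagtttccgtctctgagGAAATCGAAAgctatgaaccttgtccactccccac
Ifi203 (chr1:173942493-173942552, minus strand): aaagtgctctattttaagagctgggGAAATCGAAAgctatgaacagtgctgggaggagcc
In Isg15, 3 overlapping matches form a single block 78 to 57 bases before the start. In Oas3 the match lies 75 to 66 bases before the start.

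The Ifi200 family of DNA-binding PYHIN proteins, to which 3 of these windows belong, had 6 of its tested members called at its cluster on chromosome 1 (173350879 to 174031810, GRCm38). The family was picked after the values of its members were seen. Of 13 annotated genes 12 were tested, 6 rose (Ifi203, Ifi206, Ifi208, Ifi211, Ifi213 and Mndal), 0 fell, and all 12 had a log2 fold change above 0, with a median of 1.29. Without the block 4 of them were called. Ifi206 was at 11.4, 6.10 and 10.2 CPM untreated and 30.5, 23.7 and 73.3 CPM treated (log2 fold change 2.12 ± 0.27; edgeR adjusted p = 0.00304). Its highest value was in Tumor-CD40 library 3, and the groups did not overlap. Mndal went from 28.3, 34.1 and 25.9 to 81.8, 53.6 and 93.9 CPM (1.36 ± 0.22; edgeR adjusted p = 0.0119), again without overlap. Ifi206 kept its call without any single library, while the other 5 lost theirs without Tumor-CD40 library 1, Tumor-NoCD40 library 1 or Tumor-NoCD40 library 3, and Ifi203, Ifi208 and Ifi211 also without Tumor-CD40 library 3 (0.0572 to 0.306 over these fits). The DNA sensor gene Aim2, at the other end of the cluster, was at 34.4, 47.7 and 27.7 against 34.8, 56.4 and 48.4 CPM (0.36 ± 0.22; edgeR adjusted p = 0.581). Members of this family are close copies, and the windows of Ifi206 and Ifi213 above are nearly the same letters, and Mndal overlaps Ifi203 and contains Ifi211 on the same strand, so the reads of single members are uncertain.

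Genes that interferon gamma induces were also among the calls. Of 27 tested GTPases and transcription factors on that list 7 rose (25.9%) and 0 fell, with a median log2 fold change of 0.88, and 3 rose without the block. The immunity-related GTPase genes Igtp and Irgm1, whose products act on vacuoles that hold pathogens, rose by 0.96 ± 0.16 and 1.22 ± 0.23 on the log2 scale (edgeR adjusted p = 0.0135 and 0.0226). Tgtp2, from the same family, rose by 1.20 ± 0.21 (edgeR adjusted p = 0.0174). Gbp6, a guanylate-binding protein gene, and Iigp1, a further immunity-related GTPase gene, rose by 1.55 ± 0.26 and 1.79 ± 0.36 (edgeR adjusted p = 0.0151 and 0.0324), and both calls were lost without the block (0.168 and 0.0793). None of the 7 calls was left without pair 1, pair 3, Tumor-CD40 library 1 or Tumor-NoCD40 library 3, and 1 was left without Tumor-NoCD40 library 1. The medians in those fits were 0.81 to 0.93.

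Of 19 tested genes whose products restrain T cells, 2 rose (10.5%), Cd274 and Lgals9, and 0 fell. Cd274 (ENSMUSG00000016496, chromosome 19, 29367455 to 29388095), the gene of PD-L1, a ligand that restrains T cells through PD-1, was at 104, 54.7 and 85.5 CPM in the untreated and at 186, 243 and 199 CPM in the treated libraries. The groups did not overlap, and the rise was largest in pair 2, where the untreated library was lowest (log2 fold change 1.43 ± 0.26; edgeR adjusted p = 0.02). Lgals9 (ENSMUSG00000001123, chromosome 11, 78962974 to 78984946), which encodes galectin-9, a ligand of the inhibitory receptor TIM-3, went from 28.7, 42.1 and 22.3 to 64.8, 57.8 and 72.6 CPM (1.11 ± 0.23; edgeR adjusted p = 0.0383). Both calls were lost without the block (edgeR adjusted p = 0.0925 and 0.0561). They were also lost without single libraries: Cd274 without any of the 3 untreated libraries (0.0585 to 0.138), and Lgals9 without library 1 or 3 of either group (0.0879 to 0.28). The second PD-1 ligand gene, Pdcd1lg2, was at 18.0, 12.5 and 15.6 against 16.1, 22.2 and 19.9 CPM (0.36 ± 0.24; edgeR adjusted p = 0.63).

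The maturation program gave 2 calls in opposite directions. Of its 34 tested genes 1 rose (2.94%), 1 fell and 12 had a log2 fold change above 0, with a median of −0.12. Ccr7 was at 1429, 573 and 1678 CPM untreated and 1416, 1642 and 1479 CPM treated, a log2 fold change of 0.46 ± 0.27 (edgeR adjusted p = 0.553). The 3 treated libraries were close to each other, and the low value was that of Tumor-NoCD40 library 2. Fscn1 was also lowest in that library, with 6627, 2342 and 8684 CPM untreated and 5125, 4304 and 4375 CPM treated (−0.14 ± 0.26; edgeR adjusted p = 0.895). Without pair 2 the log2 fold change was −0.09 for Ccr7 and −0.66 for Fscn1 (edgeR adjusted p = 0.833 and 0.0775), and without Tumor-NoCD40 library 2 alone it was 0.14 and −0.47 (0.868 and 0.448). The gene that rose was Bcl2l14, a BCL2 family member, from 166, 119 and 127 to 296, 437 and 345 CPM (1.42 ± 0.27; edgeR adjusted p = 0.0285, and 0.0525 without the block), and its edgeR adjusted p was 0.0585 to 0.182 without any single untreated library or without Tumor-CD40 library 2. The gene that fell was Lad1, which encodes the basement membrane anchor ladinin-1, and its values stand with the lower genes below.

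The maturation list depended on pair 2. Without pair 2, 9 members fell and 1 rose, and the median was −0.54. Those that fell included the chemokine gene Ccl5 (log2 fold change −1.49 ± 0.17), the T cell costimulatory receptor gene Tnfrsf4 and Mreg. Without Tumor-NoCD40 library 2 alone, 7 fell and 0 rose, with a median of −0.35. In that setting the treated libraries were compared with the untreated libraries 1 and 3, which held more maturation RNA than any other library of the 6.

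Costimulators and CD40 signaling genes gave few calls. Cd40 itself was at 305, 143 and 297 CPM untreated and 296, 261 and 200.2 CPM treated (0.10 ± 0.22; edgeR adjusted p = 0.915), and its log2 fold change was −0.29 without pair 2 and −0.15 without Tumor-NoCD40 library 2 (0.554 and 0.831). Cd80, a ligand of CD28 and CTLA-4, was at 43.8, 36.9 and 29.9 against 75.2, 91.4 and 67.0 CPM, with no overlap. Its log2 fold change of 1.10 ± 0.25 missed the threshold (edgeR adjusted p = 0.0625). Cd86, the other ligand of these receptors, gave 0.43 ± 0.22 and the CD27 ligand gene Cd70 0.64 ± 0.30 (edgeR adjusted p = 0.479 and 0.443). Without Tumor-NoCD40 library 2 Cd86 gave 0.77 (edgeR adjusted p = 0.0637). Of 13 tested costimulatory genes 0 passed in edgeR (4 higher and 0 lower at an unadjusted p under 0.05), 0 in limma-voom and 1 in DESeq2, with a median of 0.34.

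Of 33 genes of CD40 and NF-kB signaling 0 passed in edgeR (3 higher and 3 lower at an unadjusted p under 0.05), 0 in limma-voom and 3 in DESeq2, 1 of them higher. The list's median of 0.06 changed sign with the libraries used. It was −0.23 without pair 2 and 0.25 without pair 3, −0.09 without Tumor-NoCD40 library 2 and −0.17 without Tumor-CD40 library 2. There was 1 lower call without pair 2 or Tumor-NoCD40 library 2, and there were 2 higher calls without Tumor-CD40 library 3. Bcl3, a nuclear partner of NF-kB, was at 49.0, 41.6 and 45.3 CPM untreated and 82.6, 91.1 and 65.9 CPM treated (0.82 ± 0.19; edgeR adjusted p = 0.0604). Map3k14, which encodes the NF-kB inducing kinase, lay the other way at 135, 97.6 and 120.2 against 79.4, 66.8 and 87.4 CPM (−0.59 ± 0.14; edgeR adjusted p = 0.0718). Among 29 cytokine and chemokine genes only Il12a passed in edgeR, from 0.537, 0 and 0.0363 to 3.46, 1.57 and 3.49 CPM (3.96 ± 0.89; edgeR adjusted p = 0.0397). Of the 29, 7 were higher and 2 lower at an unadjusted p under 0.05 in edgeR. DESeq2 called 6 of them higher and limma-voom 1. Il12a encodes the p35 subunit of interleukin 12, and its call was lost without the block and without each of the 6 libraries in turn. Il12b, which encodes the partner subunit, was at 146, 92.0 and 99.3 against 139, 136 and 167 CPM (0.39 ± 0.22; edgeR adjusted p = 0.535), and the chemokine gene Ccl22 at 2478, 787 and 2720 against 2923, 1430 and 1376 (0.07 ± 0.27; edgeR adjusted p = 0.95). Ccl22 gave −0.32 without pair 2 and −0.21 without Tumor-NoCD40 library 2 (edgeR adjusted p = 0.631 and 0.791).

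Outside the immunoglobulin genes Abca13 had the lowest p of all genes tested, and it belongs to none of the lists. Abca13 (ENSMUSG00000004668, chromosome 11, 9191942 to 9684259), a lipid transporter gene of the ABC family, was at 2.56, 2.79 and 0.654 CPM untreated and 35.8, 70.3 and 27.0 CPM treated. It rose in all 3 pairs by 4.48 ± 0.32 on the log2 scale (edgeR adjusted p = 9.78e-05). Its neighbor Upp1 (ENSMUSG00000020407, chromosome 11, 9118103 to 9136170), which encodes uridine phosphorylase, went from 0.702, 2.45 and 0.836 to 22.4, 44.6 and 15.1 CPM (4.31 ± 0.39; edgeR adjusted p = 0.000422). For both, Tumor-CD40 library 2 was the highest and the order of the treated libraries was the same. The vitamin D receptor gene Vdr was also highest in library 2, with 11.7, 5.57 and 8.17 CPM untreated and 34.2, 72.7 and 42.1 CPM treated (2.62 ± 0.47; edgeR adjusted p = 0.0196). So was Kdr, a growth factor receptor gene best known from endothelial cells, measured at 3.80, 3.92 and 3.12 against 13.9, 41.0 and 15.7 CPM (2.64 ± 0.38; edgeR adjusted p = 0.00557). The Vdr call was lost without any of the 3 untreated libraries (0.0557 to 0.138). Kdr was on the endothelial list, of which Pecam1 also rose (1.26 ± 0.27; edgeR adjusted p = 0.0423, and 0.0946 without the block), lost without library 1 or 3 of either group (0.102 to 0.288). The endothelial cadherin gene Cdh5 was at 0.0413, 0.979 and 0 CPM untreated and 1.39, 0.413 and 5.87 CPM treated, and the sum of the list at 43.0, 70.9 and 34.7 against 62.1, 105 and 115.

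Further genes rose from measurable levels. Sema7a, a membrane-anchored semaphorin gene, rose from 192, 117 and 219 to 450.3, 507 and 394 CPM (1.45 ± 0.27; edgeR adjusted p = 0.0226, and 0.0891 without the block). Runx3, a transcription factor gene of the dendritic and T cell lineages, rose from 55.8, 75.2 and 54.0 to 115, 147 and 128 CPM (1.08 ± 0.17; edgeR adjusted p = 0.0113). In neither did the groups overlap. Serpina3g, a serine protease inhibitor gene, went from 159.9, 325 and 92.7 to 429, 463 and 378 CPM (1.30 ± 0.25; edgeR adjusted p = 0.0254, and 0.239 without the block), with Tumor-NoCD40 library 2 the highest untreated one. Cdk5r1, the activator of the kinase Cdk5, rose by 2.09 ± 0.31 (edgeR adjusted p = 0.00741). Ly6d, a lymphoid lineage marker gene that was on the plasmacytoid list, was at 13.3, 3.54 and 6.03 against 86.2, 63.7 and 188 CPM (3.99 ± 0.42; edgeR adjusted p = 0.000933), highest in library 3. Arhgap24, Srpk3 and Lynx1 rose from under 1 CPM in at least 1 untreated library, by 4.10 to 4.50 on the log2 scale. All 3 of these calls were lost without Tumor-NoCD40 library 3 (0.1 to 0.328), and those of Arhgap24 and Srpk3 also without Tumor-NoCD40 library 1 or Tumor-CD40 library 3. Sema7a was lost without Tumor-CD40 library 1 or any untreated library (0.0639 to 0.113), Runx3 without Tumor-NoCD40 library 1 or 3 (0.0969 to 0.101), Serpina3g without those or Tumor-CD40 library 1 (0.0698 to 0.182), and Cdk5r1 without Tumor-NoCD40 library 3 (0.0731). Vdr, Sema7a, Runx3, Serpina3g and Cdk5r1 were picked for mention after their values were seen.

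B cell markers had the largest share of called genes among the 31 lists. Of 21 tested B cell genes 18 (85.7%) rose and 0 fell, with a median log2 fold change of 3.03, and 15 rose without the block. The low-affinity IgE receptor gene Fcer2a (CD23; ENSMUSG00000005540, chromosome 8, 3681737 to 3694175) was at 12.1, 4.03 and 9.99 CPM untreated and 138, 177 and 381 CPM treated (4.80 ± 0.39; edgeR adjusted p = 0.000293). Ms4a1 (CD20) went from 21.6, 10.9 and 9.26 to 150.4, 120.4 and 363 CPM (3.90 ± 0.40; edgeR adjusted p = 0.000837). In both genes the groups were apart and Tumor-CD40 library 3 was the highest. Left out 1 at a time, the 6 libraries gave 14 to 19 B cell genes that rose.

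The B cell list summed to 604, 559 and 324 CPM in the untreated and 1759, 1559 and 4008 CPM in the treated libraries, and immunoglobulin genes to 689, 429 and 996 against 3349, 1407 and 3185 CPM. Without a tumor the agonist libraries lay close to their controls, at 725, 512.5 and 496 against 560.1, 503 and 473 CPM for the B cell list. In bulk RNA more cells of a type and more RNA per cell cannot be told apart, so these values do not say whether the treated samples held more B cells. Of 113 tested immunoglobulin genes 35 rose with the block and 24 without it, and 0 fell in either. The count was 14 without Tumor-NoCD40 library 1 and 22 without Tumor-NoCD40 library 3. Igkc, the kappa constant gene, was at 152, 35.4 and 233 CPM untreated and 847, 387 and 779.5 CPM treated (2.44 ± 0.32; edgeR adjusted p = 0.00341, and 0.0932 without the block).

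Single variable segments differed between libraries. Igkv9-120 was at 0.124, 0 and 0.182 CPM untreated and 18.8, 0.537 and 6.98 CPM treated, highest in library 1, while Igkv3-2 was at 0.289, 0.113 and 0.109 against 0.952, 3.14 and 16.2, highest in library 3. Of the 35 immunoglobulin genes, 24 had a mean under 1 CPM in the untreated libraries. Segments are near copies of each other, so single ones are uncertain. The Igkv9-120 call was lost without library 1 of either group (0.0769 to 0.193) and that of Igkv3-2 without library 3 of either group (0.151 to 0.389). Of 13 tested plasma cell genes 2 rose, namely the immunoglobulin constant genes Ighg2b and Ighg3, the second of which was lost without the block (edgeR adjusted p = 0.053). A log2 fold change above 0 was found for 12 of the 13, with a median of 0.63, and the list summed to 277, 191 and 513 CPM untreated and 1276, 397 and 744 CPM treated, with overlap. Mzb1, a chaperone gene of antibody-secreting cells, was at 7.35, 2.56 and 15.2 against 39.2, 17.6 and 30.6 CPM, without overlap (1.85 ± 0.41; edgeR adjusted p = 0.0534). The surface marker gene Sdc1 was at 6.28, 2.15 and 2.62 against 7.40, 2.81 and 2.50 CPM, with overlap.

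**Figure D3:**
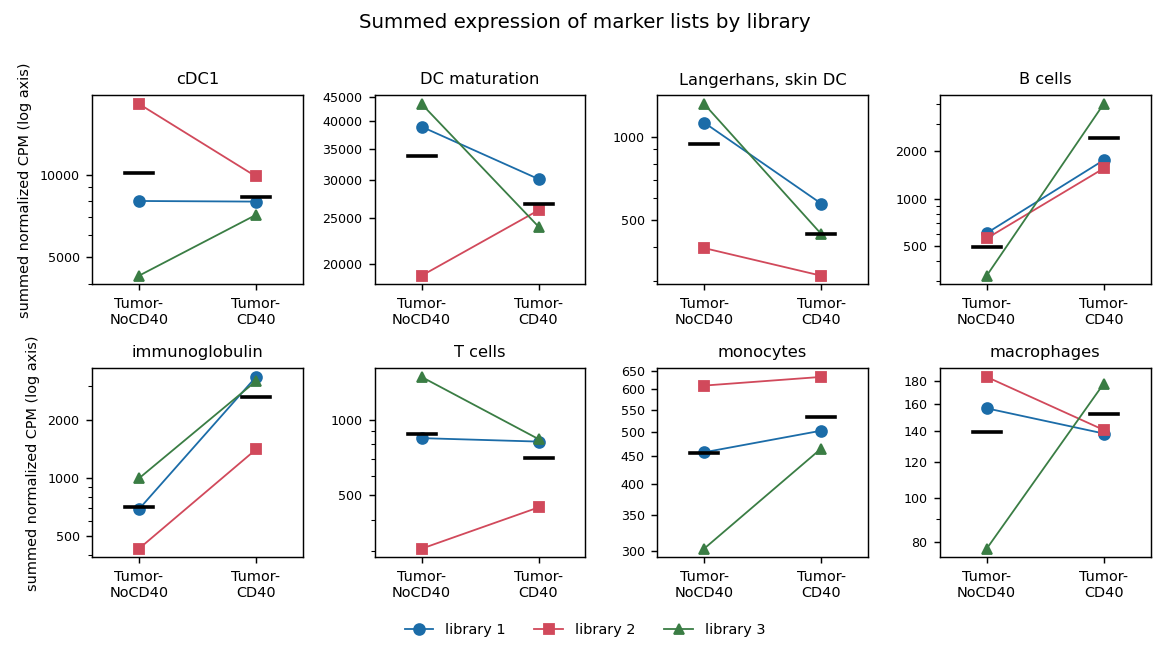
Summed CPM on log axes of 8 gene lists in the 6 libraries, with lines joining pairs and black bars at group means. The B cell and immunoglobulin sums rise in every pair. The skin dendritic cell sum, in which Mfge8 is the largest gene, falls in every pair. The cDC1 and maturation sums cross, with Tumor-NoCD40 library 2 (red squares) apart in opposite directions.

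The order of the treated libraries differed among the groups of higher genes. All 17 higher genes of the B cell, plasma cell and germinal centre lists were highest in Tumor-CD40 library 3, which exceeded the mean of the other two by a median of 1.33 on the log2 scale. Among the 29 interferon genes library 3 was highest for 10 (34.5%), with a median of −0.03, and among all genes tested for 31%. Of the 35 higher immunoglobulin genes, 19 (54.3%) were highest in library 3 and 12 in library 1, with a median of 0.45. Close to these, of the 113 higher genes in none of the lists, 68 (60.2%) were highest in library 3, with a median of 0.4. The part of B cell RNA in these 113 was not tested.

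Of 30 tested genes for antigen uptake and cross-presentation 3 rose, Cybb, Rac2 and Syk. Cybb, the catalytic subunit of the phagocyte NADPH oxidase, was at 12.97, 7.64 and 9.63 CPM untreated and 61.4, 60.4 and 152 CPM treated (3.17 ± 0.40; edgeR adjusted p = 0.00282). The GTPase gene Rac2, which acts in the same complex, went from 141, 105 and 155 to 275, 207 and 399.8 CPM (1.11 ± 0.17; edgeR adjusted p = 0.00949). The kinase gene Syk went from 83.0, 107 and 52.1 to 151, 223 and 268 CPM (1.41 ± 0.24; edgeR adjusted p = 0.017). Rac2 was lost without Tumor-NoCD40 library 1 (0.0522) or 3 (0.084), and Syk without Tumor-NoCD40 library 1 (0.072). Each of the 3 was highest in Tumor-CD40 library 3. So was H2-DMb2, a chaperone gene of peptide loading on MHC class II, at 84.1, 106 and 27.6 CPM untreated and 187, 239.9 and 288 CPM treated (1.91 ± 0.36; edgeR adjusted p = 0.0246, and 0.0717 without the block), lost without Tumor-NoCD40 library 1 (0.105) or 3 (0.135). The transcription factor gene Spib, active in both B cells and plasmacytoid dendritic cells, was even across the treated libraries, at 92.1, 42.8 and 103 against 224, 246 and 265 CPM (1.75 ± 0.24; edgeR adjusted p = 0.00458, and 0.0959 without the block). The plasmacytoid dendritic cell marker gene Siglech was at 5.62, 2.03 and 0.763 CPM untreated and 4.46, 0.826 and 2.26 CPM treated.

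Of 12 tested monocyte genes 2 rose and 1 fell, with a median of 1.25. Ly6c2, part of the Ly6C antigen of monocytes and itself interferon responsive, rose from 7.44, 10.6 and 8.65 to 57.7, 47.4 and 71.4 CPM (2.71 ± 0.30; edgeR adjusted p = 0.00106). Chil3, a chitinase-like secreted protein gene, was at 0.165, 0.151 and 0.254 CPM untreated and 0.649, 1.73 and 23.5 CPM treated, and its call was lost without library 3 of either group (edgeR adjusted p = 0.196 without Tumor-CD40 library 3 and 0.517 without Tumor-NoCD40 library 3). The macrophage gene Siglec1, a sialic acid receptor that interferon also induces, went from 1.86, 0.602 and 1.38 to 5.67, 4.67 and 8.36 CPM (2.30 ± 0.47; edgeR adjusted p = 0.0366), and was the only 1 of 15 macrophage genes called by edgeR. Of the 15, 12 had a log2 fold change above 0, with a median of 1.20, 6 had an unadjusted p under 0.05, all of them higher, and DESeq2 called 4 and limma-voom 0. The list summed to 157, 183 and 77.5 CPM untreated and 138, 141 and 177 CPM treated, with overlap. The Siglec1 call was lost without each of the 6 libraries in turn (0.0637 to 0.234). The macrophage marker gene Adgre1 (F4/80) stood at 6.86, 3.24 and 2.94 CPM untreated and 3.64, 3.88 and 7.37 treated, with overlap. The complement genes C1qa and C1qb of macrophages did not overlap, C1qa at 2.64, 0.753 and 1.60 against 5.89, 4.46 and 12.1 CPM and C1qb at 4.42, 1.21 and 1.67 against 8.05, 7.39 and 9.12 (edgeR adjusted p = 0.12 and 0.0677). T cell genes summed to 846, 307 and 1485 CPM untreated and 819.9, 448 and 839 CPM treated, with overlap. Of 18 tested T cell genes 0 passed in edgeR (0 higher and 2 lower at an unadjusted p under 0.05), in limma-voom or in DESeq2.

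The 35 lower genes included Cd207 of the skin dendritic cell list, Idi1 of sterol synthesis and Eno3 of glycolysis. Cd207 (ENSMUSG00000034783, chromosome 6, 83671215 to 83677857), the langerin gene of Langerhans cells and of a subset of cDC1, was at 43.9, 82.9 and 15.6 CPM in the untreated and 5.32, 3.14 and 3.85 CPM in the treated libraries. The 3 treated values were close and far below the lowest untreated one (log2 fold change −3.38 ± 0.56; edgeR adjusted p = 0.0131, and 0.0909 without the block). The call was lost without library 1 of either group only (edgeR adjusted p = 0.0821 without Tumor-NoCD40 library 1 and 0.0617 without Tumor-CD40 library 1). Of 9 tested genes of Langerhans and skin dendritic cells Cd207 was the only call, 8 had a log2 fold change of 0 or below, and the median was −0.94. The list summed to 1126, 396 and 1315 CPM untreated and 574, 315 and 446 CPM treated. Its largest member in each of these libraries was Mfge8, at 900.5, 162 and 1118 CPM untreated and 430, 137 and 308.5 CPM treated. In pairs 1 and 3 the sum thus largely follows this gene. Epcam, the adhesion gene of Langerhans cells, was at 13.1, 3.39 and 14.6 against 4.93, 3.88 and 4.68 CPM (−1.14 ± 0.39; edgeR adjusted p = 0.252). Among the untreated libraries Epcam and the list's sum were lowest in library 2, where Cd207, like the cDC1 sum, was highest.

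Cd207, the chemokine receptor gene Ccr2 and the serpin gene Serpinb10 were highest in Tumor-NoCD40 library 2. Ccr2 was at 93.0, 147 and 40.8 CPM untreated and 28.0, 19.7 and 18.3 CPM treated (−1.88 ± 0.41; edgeR adjusted p = 0.0486, and 0.204 without the block), and the call was lost without each library but Tumor-CD40 library 3 (0.0617 to 0.202). It is known from monocytes and also from dendritic cell precursors. Serpinb10 went from 10.5, 12.3 and 2.43 to 0.952, 0.826 and 0.793 CPM (−3.23 ± 0.68; edgeR adjusted p = 0.0372, and 0.0687 without the block), a call that was lost without library 1 or 2 of either group (0.0819 to 0.187). For 27 of the 35 lower genes (77.1%) that library was instead the lowest untreated one, as it was for 36.7% of all genes tested. These 27 genes thus had their higher values in the 2 untreated libraries with the most maturation RNA, and the part of that difference in the calls was not tested.

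Eno3 (ENSMUSG00000060600, chromosome 11, 70657202 to 70662513), an enolase gene of glycolysis, was at 359, 132 and 368 CPM untreated and 105, 67.6 and 75.4 CPM treated (−1.73 ± 0.24; edgeR adjusted p = 0.00507, and 0.044 without the block). It was the only 1 of 22 tested glycolysis genes called, and the list's median was 0.03. Lad1 went from 212, 87.7 and 222 to 85.4, 50.7 and 63.7 CPM (−1.32 ± 0.19; edgeR adjusted p = 0.00642, and 0.349 without the block), and its call was lost without Tumor-NoCD40 library 1 (0.0722). Cavin1, a coat protein gene of caveolae, went from 39.8, 15.6 and 69.2 to 14.0, 7.23 and 8.76 CPM (−1.96 ± 0.32; edgeR adjusted p = 0.0119, and 0.118 without the block). The matrix metalloproteinase gene Mmp7 went from 14.2, 4.93 and 15.2 to 2.51, 2.64 and 3.17 CPM (−1.99 ± 0.35; edgeR adjusted p = 0.0192, and 0.159 without the block), a call lost without library 1 or 3 of either group (0.0754 to 0.149). In all 4 the groups were apart, with library 2 lowest among the untreated. Fbln5, Scube3, Nphs1, Card14 and Erich5 fell from means of 5.19 to 21.1 CPM, by 1.84 to 3.57 on the log2 scale, and each of these calls was lost without at least 4 of the 6 libraries left out singly, Tumor-NoCD40 libraries 1 and 3 among them. Without the block only Scube3 of these stayed past the threshold.

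Sterol synthesis genes lay lower with little support gene by gene. Of 24 tested genes only Idi1 passed, and all 24 had a log2 fold change below 0, with a median of −0.58. In all 3 pairs 19 of the 24 were lower, as were 14.3% of all genes tested. The list summed to 1642, 1129 and 1614 CPM untreated and 876, 844 and 980.4 CPM treated, without overlap. Idi1, isopentenyl diphosphate isomerase, went from 269, 85.9 and 311 to 109, 60.9 and 79.7 CPM (−1.31 ± 0.24; edgeR adjusted p = 0.0223, and 0.264 without the block), and the call was lost without library 1 or 3 of either group (0.0688 to 0.166). Hmgcs1, which encodes the enzyme that makes HMG-CoA, was at 106, 65.1 and 110.3 against 57.4, 47.7 and 55.3 CPM (−0.80 ± 0.21; edgeR adjusted p = 0.12). Fdps, farnesyl diphosphate synthase, was at 84.6, 63.2 and 78.6 against 36.5, 48.1 and 41.3 CPM (−0.85 ± 0.23; edgeR adjusted p = 0.12). At an unadjusted p under 0.05, 14 of the 24 were lower, and without Tumor-NoCD40 library 2 there were 6 calls. Hmgcs1 and Fdps were picked for mention after their values were seen.

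**Figure D4:**
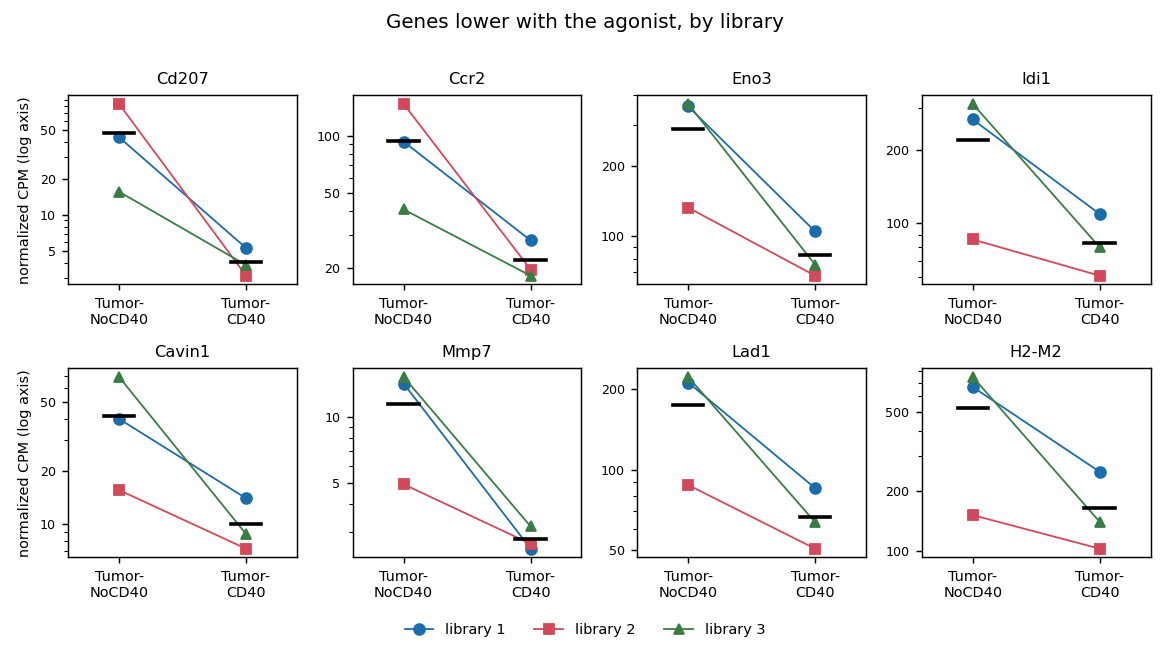
Normalized CPM on log axes of 8 genes that fell, by library, with lines joining pairs and black bars at group means. Cd207 and Ccr2 start highest in Tumor-NoCD40 library 2 (red squares), while Eno3, Idi1, Cavin1, Mmp7, Lad1 and H2-M2 start lowest there.

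Some entries among the calls are uncertain. Nnt has 2 entries over the same stretch of chromosome 13, and only the second entry was called lower, a call lost without Tumor-CD40 library 1 (0.102) or Tumor-NoCD40 library 2 (0.0655), while both entries together gave 9.29, 15.5 and 9.81 CPM untreated and 11.2, 8.63 and 10.3 CPM treated. The predicted gene Gm10184 was at 12.4, 0 and 21.2 CPM untreated and at 0 in all treated libraries, and at 0 in both libraries of pair 2, so its fitted fold change has no meaning. Gm4366, also a predicted gene, was at 0, 10.5 and 0 CPM untreated and 94.0, 81.4 and 64.0 CPM treated, with 2 libraries at 0. In all, 15 of the 194 higher genes had an untreated library at 0.

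The agonist effect was then set beside that in mice without a tumor, from the same fit. The groups compared there share no library with those above. NoTumor-NoCD40 library 3 adds nothing to that contrast with the block, since its title prefix belongs to no other library. Prefix 091418 holds NoTumor-CD40 library 3 but no NoTumor-NoCD40 library. The tumor libraries of that prefix therefore also enter the estimate without a tumor, through the block. Without a tumor 42 genes (0.232%) were higher and 6 (0.0332%) lower by edgeR, and 261 passed in either direction without the block. Of the 194 genes that rose with a tumor 18 (9.28%) also rose without, which is 42.9% of those 42, and 165 of the 194 had a log2 fold change above 0 without a tumor. Of the 35 lower genes 30 were below 0 there, and 0 fell in both. The shares of all genes tested above and below 0 without a tumor were not counted, so these signs alone do not measure agreement.

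Abca13, Upp1 and Oas3 were called higher in both settings. Abca13 gave 4.48 ± 0.32 with and 4.18 ± 0.41 without a tumor, Upp1 4.31 ± 0.39 and 4.13 ± 0.48, and Oas3 2.23 ± 0.21 and 2.68 ± 0.24 on the log2 scale. Their differences between settings were 0.31 ± 0.64, 0.18 ± 0.79 and −0.45 ± 0.31 (edgeR adjusted p = 0.904, 0.961 and 0.693). The medians of the type I interferon list were 1.03 with and 0.86 without a tumor, with 23 and 6 members called. The B cell list had medians of 3.03 and 0.47 with 18 and 0 called, and the maturation list −0.12 and 0.65. Ccr7 gave 0.46 ± 0.27 with and 1.39 ± 0.32 without a tumor, and Cd70 0.64 ± 0.30 and 2.52 ± 0.39.

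No gene passed the test of the difference between the 2 agonist effects in edgeR, with or without the block. The smallest adjusted p was 0.616, and 1437 genes (7.94%) had an unadjusted p under 0.05. limma-voom also gave 0 and DESeq2 133. The genes of lowest p included Ccr6, the chemokine receptor gene of B cells and some dendritic cells, and Cd79b, a signaling chain of the B cell receptor. Ccr6 rose with a tumor (2.29 ± 0.29) and gave −0.51 ± 0.39 without, a difference of 2.79 ± 0.50 (edgeR adjusted p = 0.616). Cd79b gave 3.24 ± 0.32 and 0.44 ± 0.40, a difference of 2.81 ± 0.51 (edgeR adjusted p = 0.616). Without pair 2, with the libraries of that prefix without a tumor kept, 40 genes passed. Of these, 37 had a lower effect in the presence of a tumor. They included Ccr7, Fscn1, Mreg and Ccl5 of the maturation list. All 40 lay just under the threshold, at an edgeR adjusted p of 0.0491. Without Tumor-NoCD40 library 2 alone, or Tumor-CD40 library 2 alone, 0 genes passed.

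**Figure D5:**
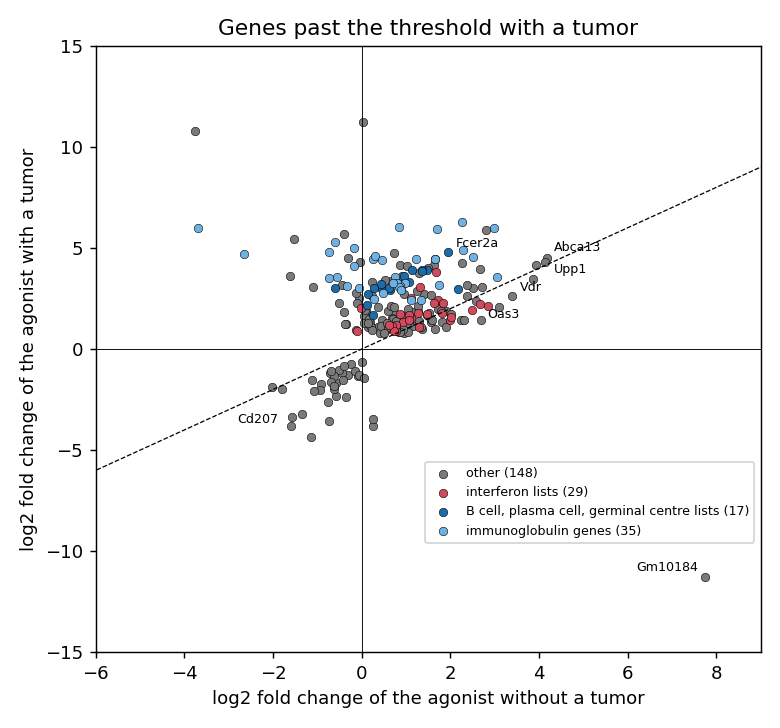
The 229 genes called with a tumor, by their log2 fold change without a tumor (horizontal) and with it (vertical), with a dashed line where both are equal. Abca13, Upp1, Vdr and Oas3 lie near the line, the B cell and immunoglobulin genes lie above it, and Gm10184 at the lower right is a predicted gene with libraries at 0.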

How the data were processed

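The authors deposited expected counts per transcript and TPM (length- and depth-scaled transcript abundances) for 12 libraries, made with Salmon against mm10, per the submitters' processing notes. Those notes give no version, and the annotation release is not given in the sources used here. Of 136288 transcripts, 136176 were summed to 53458 genes of GENCODE's GRCm38 annotation, and 112 were left out (0.0279% to 0.0457% of counts). Rounded gene counts were tested with edgeR 4.0.16 (TMM, glmQLFit, glmQLFTest) in R 4.3.3. filterByExpr (minimum count 10, minimum total 15) left 18095 genes. The fit held all 12 libraries, 4 groups and the title prefix as a block, with a Benjamini-Hochberg adjusted p under 0.05. Libraries with a shared prefix deviated weakly together (r = 0.15, 0.24 and 0.18 over 10222 genes, against −0.26 to 0.07 otherwise). Deviations were taken from the mean of each group, so the lower values otherwise follow in part from the higher ones within a prefix. Alternatives were no block, edgeR's older dispersion method, the 6 libraries alone, DESeq2 1.42.0, limma 3.58.1 (voom, and log2 TPM with pseudocounts of 1 or 0.1), no filter, immunoglobulin genes left out, and each pair or library left out. On simulated data from 16489 genes the fit recovered 51% of 2-fold and 92% of 4-fold changes, with 10.1% of 159 calls false. Members and lists were chosen with earlier results of these data known. Named were a fixed panel, up to 15 genes in each direction with the largest change (mean of at least 5 CPM and the same sign in all 3 pairs), up to 5 immunoglobulin genes, up to 6 called members of each list by lowest p, and 5 genes of the interaction. Other genes named in the report were picked after their values were seen. A few genes of the lists are counted but not reported by name here.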

Additional observations from a re-analysis of the deposited data

How the results depend on the processing

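With a tumor the count of 229 calls was 124 without the replicate block (116 shared), 125 with edgeR's older dispersion method, 28 from the 6 libraries alone, 588 with DESeq2, and 24 with log2 TPM at either pseudocount. Leaving out a pair or a library gave 56 to 394. Without a tumor the 48 calls became 261 without the block, 21 with the older method, 584 with DESeq2, 2 and 0 with log2 TPM (pseudocounts 1 and 0.1), 88 without a filter, and 3 to 318 with a pair or library left out. The difference between both effects gave 0 calls, 133 with DESeq2, and 0 to 40 with a pair or library left out. Of the 66 named genes past the threshold, 39 stayed past it without the block, 51 with limma-voom and 65 with DESeq2, and none reversed in any of these alternatives. The block moved no direction among them. Causes of these shifts were not tested. In simulated data the older method gave 4.61% false calls, against 10.1%. With 3 libraries a group, changes near 2-fold were often not detectable.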

Other observations

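Several cell programs held no call, and changes near 2-fold are often not detectable with 3 libraries a group. Of 21 tested MHC class I presentation genes 0 passed in edgeR (0 higher and 1 lower at an unadjusted p under 0.05), 0 in limma-voom and 0 in DESeq2, with a median log2 fold change of −0.02. Of 31 cell cycle genes 0 passed in edgeR (0 at an unadjusted p under 0.05), limma-voom or DESeq2, with a median of 0.08. The mitochondrial ribosome had a median of −0.08 and the unfolded protein response −0.06, with 0 calls of 27 and 22 genes in edgeR, limma-voom or DESeq2 (1 higher and 0 lower, and 1 higher and 1 lower, at an unadjusted p under 0.05).

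Neutrophil genes were near 0 in most libraries but not in 2 treated ones: their sum was 3.72, 4.86 and 2.36 CPM untreated and 26.7, 4.34 and 28.9 CPM treated. The calprotectin gene S100a8 was at 0.124, 0.527 and 0.0727 CPM untreated and 8.52, 1.20 and 8.36 CPM treated (4.61 ± 1.06; edgeR adjusted p = 0.058). The genes of epithelial and tumor cells summed to 24.6, 16.5 and 26.6 CPM untreated and 11.7, 7.06 and 13.5 CPM treated, and NK cell genes to 109, 124 and 141 against 169.7, 126 and 139. The keratin gene Krt18 was at 2.48, 3.01 and 0.291 against 0.130, 0 and 0.278 CPM (−3.71 ± 1.12; edgeR adjusted p = 0.14).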
